A study of Mus musculus with 6 samples.

Results

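Insulin leaves the islet beta cell by fusion of secretory granules with the plasma membrane, and the transcripts of 9 genes of this fusion machinery were followed here around the day in islets of the mouse pancreas, small groups of hormone-secreting cells. The genes were chosen by name. Of the 9, Snap25, Stx1a, Vamp2, Rab3a, Rab27a, Syt7 and Unc13a made a neuroendocrine-restricted class of 7, and Stx4a and Napa a ubiquitous class of 2. A tested probe was found for 8 of the 9 genes, out of 24127 genes tested on the arrays, and 7 of them were well above background on all 6 arrays. Stx1a was so on 4 arrays and Unc13a on 0. Islets came from male C57BL6 mice aged 8 weeks on chow, in a light:dark cycle of 12 h each, at zeitgeber times ZT0 (lights on), ZT4, ZT8, ZT12 (lights off), ZT16 and ZT20. Islets were isolated with collagenase, and each time was 1 one-colour Agilent array (Cy3) of RNA pooled from 3 to 5 mice, and the labels name no genetic change or treatment in any group. A time point therefore had no replicate, and a pair of single time points could not be tested against each other. In such bulk RNA, fewer cells of a type and less RNA per cell cannot be told apart.

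Granule fusion is driven by SNARE proteins. The vesicle protein VAMP2 zips together with the plasma membrane proteins syntaxin 1A (Stx1a) and SNAP-25 (Snap25), Munc18 proteins hold and template the syntaxin, Munc13 proteins (Unc13 genes) open it for priming, and complexins clamp the assembled bundle. The GTPases RAB3A and RAB27A bring granules to the membrane, and synaptotagmin 7 (Syt7) is a high-affinity calcium sensor for insulin release. Syntaxin 4 (Stx4a) is a plasma membrane SNARE of most cell types that also takes part in insulin release, and alpha-SNAP (Napa) recruits the ATPase NSF to take spent SNARE bundles apart in every cell. Rab27a, although placed in the neuroendocrine class by its role in islets, is also used for granule release by cytotoxic lymphocytes and for melanosome transport in melanocytes.

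Levels below are log2 of the processed signal minus the array's 75th percentile, so that 0 is the signal of a probe brighter than 75% of the probes on its array; a level is compared only with the same probe's level on other arrays. The measurement error that the scanner software gave a bright spot came to 0.14 on this scale, and neighbouring arrays in the order of a gene's levels are called separable where they differed by more than 2 combined errors; this error says nothing of the spread between mice. The share of spots well above background ran from 66.1% (ZT4) to 84.4% (ZT0), and 0 spots were saturated. One slide, read in a single scan, held the arrays of ZT8 to ZT20. The ZT4 array was read in a scan of its own, and the ZT0 array in yet another scan on a later day. Of 16 beta cell and pan-endocrine markers, 15 could be tested and all 15 were well above background on the 6 arrays, among them Ins1, Ins2, Chga and Pcsk1. Their detection shows endocrine RNA in each pool and not its share. Markers of other cells were measured as well, including 12 of 12 tested lymphocyte markers and 11 of 12 acinar markers on all 6 arrays.

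Because one class was taken as ubiquitous and the other as neuroendocrine-restricted, the stretches upstream of their starts are shown for both ubiquitous genes and for Rab3a. They are 250 bases long, end at the last base before the transcript start in RefSeq's GRCm38.p6 annotation, and run 5′ to 3′ on the gene's strand, which is the plus strand in each. Capitals mark 2 motifs, the canonical E-box CACGTG to which the clock factors CLOCK and BMAL1 can bind, and the GC box GGGCGG or its complement CCGCCC to which SP1 can bind.
Napa, chr7:16098330-16098579: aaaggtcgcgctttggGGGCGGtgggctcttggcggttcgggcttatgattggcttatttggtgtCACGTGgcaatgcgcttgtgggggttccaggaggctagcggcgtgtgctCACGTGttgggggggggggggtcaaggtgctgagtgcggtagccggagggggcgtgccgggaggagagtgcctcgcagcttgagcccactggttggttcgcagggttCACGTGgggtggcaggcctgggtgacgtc
Stx4a, chr7:127841558-127841807: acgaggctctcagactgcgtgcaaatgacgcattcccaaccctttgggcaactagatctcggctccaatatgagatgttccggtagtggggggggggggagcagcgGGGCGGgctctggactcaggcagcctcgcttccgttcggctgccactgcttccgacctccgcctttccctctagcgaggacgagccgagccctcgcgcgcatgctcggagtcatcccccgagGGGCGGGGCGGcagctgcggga
Rab3a, chr8:70754453-70754702: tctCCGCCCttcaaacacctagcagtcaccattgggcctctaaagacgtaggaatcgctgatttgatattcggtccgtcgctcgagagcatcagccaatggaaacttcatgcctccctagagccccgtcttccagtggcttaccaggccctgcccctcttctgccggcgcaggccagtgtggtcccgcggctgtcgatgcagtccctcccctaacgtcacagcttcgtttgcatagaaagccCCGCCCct
Napa held 3 E-boxes, at 185, 136 and 29 bases before the start, and 1 GC box at 234. Stx4a held 3 GC boxes, at 144, 22 and 17 bases before the start, the last pair sharing 1 base, and Rab3a held 2, at 247 and 8. The second listed start of Rab3a had no match to either motif. Windows were found for 6 of the 9 genes, 8 windows in all, and the missing ones were those of Snap25, Vamp2 and Syt7. The E-box was found on either strand in 2 of the 8 windows (Napa and the second start of Rab27a) and in 6.02% of the 32851 windows of all genes. The GC box was in 6 of the 8 windows and in 32.7% of all. The cyclic AMP element TGACGTCA (1.55% of all windows), the D-box TTATGTAA (0.819%), the TATA box TATAAA (12.4%) and the 2 parts of the RE1 element, TTCAGCACC (0.301%) and GGACAGC (5.28%), were in 0 of the 8. A match describes the letters in these windows and not binding.

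Snap25, the t-SNARE that supplies a pair of helices to the bundle, had levels of 4.06 (ZT0), 3.88 (ZT4), 2.38 (ZT8), 0.86 (ZT12), 3.24 (ZT16) and 2.92 (ZT20). It was high around lights on and low at lights off, 9.18-fold higher at ZT0 than at ZT12. ZT4 was the highest array when arrays were scaled to their median, but lay just below ZT16 after quantile normalization and on the authors' values. ZT0 and ZT4 were the arrays read outside the shared scan. The step between ZT8 and ZT12 was separable, and so was that between ZT4 and ZT16, whereas ZT0 with ZT4 and ZT16 with ZT20 were not. Stx1a, the syntaxin that pairs with SNAP-25, was dim, with levels of -4.80 (ZT0), -5.30 (ZT4), -3.80 (ZT8), -3.91 (ZT12), -5.23 (ZT16) and -4.57 (ZT20). Its spots at ZT4 and ZT16 were not well above background, so on the scale used here its level at ZT8 was at least 2.60-fold above that of ZT16. With normexp background correction that bound was not met, with ZT8 at 0.17 and ZT16 at -0.27 from the gene's own mean. The bound sets the mean of the brighter array against the higher of the dim probe's own level and the lowest level among probes well above background there. Unlike Snap25, Stx1a was not low at ZT12, but its order changed with the scaling of the arrays, and no place in the order is read from it beyond ZT8 and ZT12 lying above ZT20.

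Vamp2, the v-SNARE of the granule, had levels of 1.09 (ZT0), -0.40 (ZT4), 1.499 (ZT8), -1.02 (ZT12), 1.16 (ZT16) and 0.79 (ZT20). It was low on 2 arrays, ZT4 and ZT12, and these were separable from each other and from the remaining 4, whose neighbours in the order were not separable. The ZT8 level was 5.75-fold above that at ZT12.

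Rab3a, the GTPase that holds granules near their release sites, had levels of 4.43 (ZT0), 3.75 (ZT4), 4.25 (ZT8), 2.21 (ZT12), 5.44 (ZT16) and 5.04 (ZT20). It was lowest at lights off and highest 4 h later, a 9.35-fold difference between adjacent time points, ZT16 over ZT12, that lay within the shared scan. Rab27a, which recruits the granuphilin (Sytl4) type of effector to granules, had levels of -2.57 (ZT0), -3.49 (ZT4), -2.02 (ZT8), -1.74 (ZT12), -0.65 (ZT16) and 0.06 (ZT20). Its order was the only one of the 8 that climbed at every step between ZT4 and ZT20, with ZT20 at 11.7-fold the level of ZT4, and only the ZT8 and ZT12 levels were not separable. With normexp background correction its lowest array was ZT0 in place of ZT4. Rab27a thus differed from Snap25, Vamp2 and Rab3a in having no low at ZT12, and its deviation there from its own mean was -0.01.

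Syt7, the calcium sensor, had levels of -1.89 (ZT0), -4.79 (ZT4), -1.22 (ZT8), -4.98 (ZT12), -0.67 (ZT16) and -0.93 (ZT20). As with Vamp2, 2 arrays were low, ZT4 and ZT12, here without being separable from each other, and the ZT16 level was 19.9-fold above that at ZT12. On the scale used here that was the widest range among the 8 genes. With normexp background correction the Syt7 range was 2.95 on the log2 scale, below those of Rab3a (3.29) and Snap25 (3.13). The spot errors of the low pair were larger, 0.31 at ZT4 and 0.25 at ZT12. A second Syt7 probe was well above background at ZT0 alone and could not repeat the pattern. Unc13a, the Munc13 priming factor best known from neurons, had 1 probe, with levels between -7.59 and -6.44, and it was not well above background on any array. No change of Unc13a between times can therefore be read.

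The ubiquitous t-SNARE Stx4a had levels of 3.24 (ZT0), 4.47 (ZT4), 2.92 (ZT8), 3.76 (ZT12), 2.74 (ZT16) and 2.52 (ZT20). ZT4 and ZT12 were here the highest pair, and the 3.88-fold difference between ZT4 and ZT20 was smaller than the range of each neuroendocrine gene measured on all arrays. Under array median scaling this did not hold for Vamp2, whose range was 2.09 on the log2 scale against 2.36 for Stx4a. A second Stx4a probe read 1.71, 1.85, 1.84, 2.47, 1.59 and 1.28 in the same order of times. It too was lowest at ZT20, but its highest array was ZT12. Napa, the disassembly adaptor, had levels of 3.31 (ZT0), 4.86 (ZT4), 3.93 (ZT8), 3.96 (ZT12), 4.96 (ZT16) and 4.30 (ZT20). The ZT16 level was 3.13-fold above that at ZT0, and ZT4 and ZT16 were not separable and changed places under array median scaling. The second Napa probe disagreed with the first: it read 2.69, 2.03, 2.39, 1.32, 3.36 and 2.85 at the successive times, lowest at ZT12 as in Snap25 and Rab3a, and only the high value at ZT16 was shared by both probes.

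**Figure D1:**
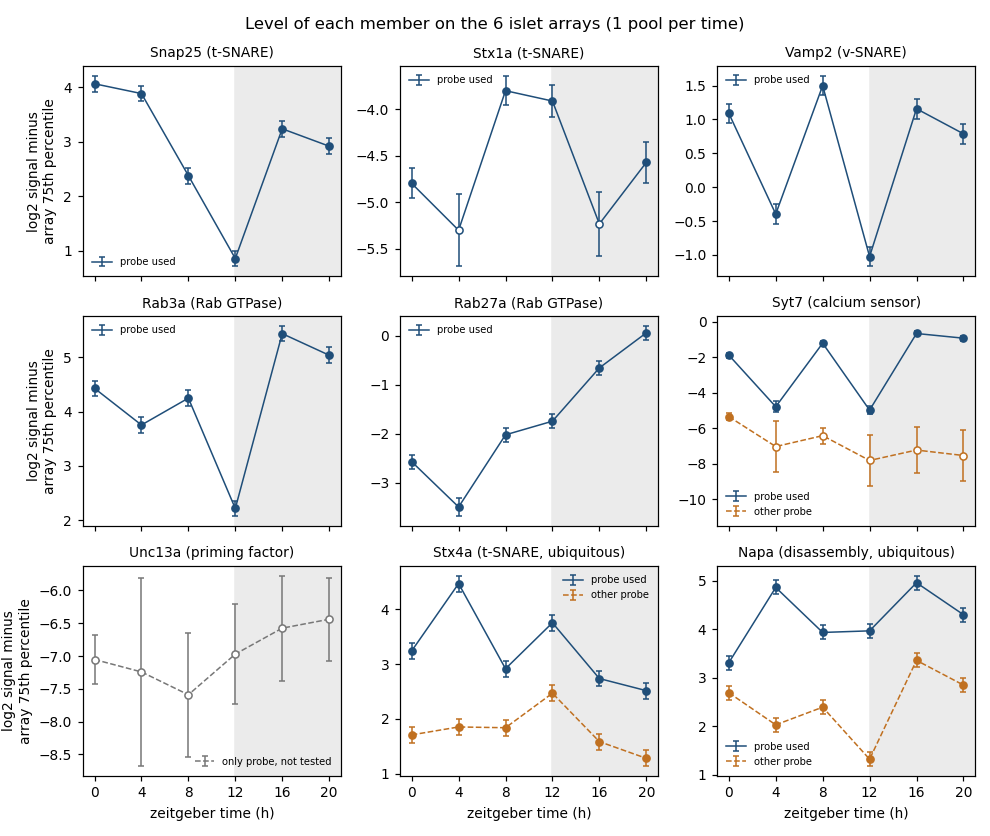
Level of each of the 9 genes (log2 signal minus the array's 75th percentile, vertical axis) against zeitgeber time (hours, horizontal axis; grey is the dark phase), with 1 array per point; bars are the scanner software's error, open circles were not well above background, and dashed lines are other probes or the untested Unc13a probe. Snap25, Vamp2, Rab3a and Syt7 are lowest at ZT12, Rab27a climbs between ZT4 and ZT20, and the pair of Napa probes part at ZT4 and ZT12.

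The low at ZT12 recurred across roles in the neuroendocrine class. Of the 7 genes well above background on all arrays, 4 (Snap25, Vamp2, Rab3a, Syt7) had their lowest level at ZT12, where 21.2% of all such genes did, and 1 (Rab27a) at ZT4, where 18.5% did. The 4 genes were lowest at ZT12 under each of the 5 ways of scaling tried, and also among the 4 arrays of the shared scan. For Syt7, however, the ZT12 and ZT4 levels were not separable, and ZT4 lay outside that scan. Set against the median of the other 5 arrays, 4 of the 7 were at least 2-fold lower at ZT12 (Snap25 by -2.37, Vamp2 by -2.11, Rab3a by -2.22 and Syt7 by -3.77 on the log2 scale), and 18.1% of the 18928 genes measured on all arrays were. At ZT4, 3 of 7 were at least 2-fold lower (Vamp2, Rab27a and Syt7), against 15.8% of all genes.

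Departures upward lay mostly after lights off. At ZT16, 3 of 7 (Rab3a, Rab27a, Syt7) were at least 2-fold higher than the median of the other arrays, against 10.1% of all genes, and at ZT20 Rab27a alone was, against 10.3%. Snap25 was the 1 gene that was higher at ZT0 (15.3% of all genes), and Stx4a the 1 that was higher at ZT4 (23.9%). No member was above at ZT8 or ZT12, where 6.35% and 17.6% of all genes were. None was below at ZT0, ZT8, ZT16 or ZT20, where the shares of all genes were 18.4%, 1.75%, 12.3% and 11.9%. Both ubiquitous genes together gave 1 of the 13 departures. These shares cover genes of every level and are a description with no test, since the 9 genes are not replicates and large parts of the array moved on every pool except ZT8.

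The range over the day, highest minus lowest level, had a median of 1.92 over the 18928 genes, with quartiles of 1.33 and 2.78. Syt7, with a range of 4.31, stood at the 93.0th percentile of those genes, and Rab27a, with 3.55, at the 86.7th. Rab3a (3.22) and Snap25 (3.20) stood near the 82nd, and Vamp2 (2.52) at the 69.1st. The ubiquitous genes lay near or below the middle, Stx4a (1.95) at the 51.3rd percentile and Napa (1.65) at the 38.6th. These ranges moved with the processing. Syt7 had 2.95 with normexp background correction, Stx4a 2.36 under array median scaling and Napa 2.17 after quantile normalization.

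The comparison of the classes was made on deviations, each gene's level on an array minus its own mean over the 6 arrays. The 6 measured neuroendocrine genes (without Unc13a) averaged 0.25 (ZT0), -0.87 (ZT4), 0.37 (ZT8), -1.24 (ZT12), 0.74 (ZT16) and 0.74 (ZT20). Stx4a and Napa averaged -0.47, 0.92, -0.32, 0.11, 0.10 and -0.34 at those times. The neuroendocrine class was thus the lower of the classes on the ZT4 and ZT12 arrays and the higher on the other 4. The difference, neuroendocrine minus ubiquitous, was 0.72 (ZT0), -1.78 (ZT4), 0.70 (ZT8), -1.35 (ZT12), 0.64 (ZT16) and 1.08 (ZT20), with a spot error of 0.12 to 0.14. Its range over the day was 2.87, or 2.43 among the 4 arrays of the shared scan.

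The size of this contrast turned on the probes and the scaling. With the other probes of Stx4a and Napa the differences were 0.16, -0.69, 0.37, -1.02, 0.38 and 0.79 from ZT0 to ZT20, a range of 1.81, and the ubiquitous mean at ZT4 was then -0.17 in place of 0.92. After quantile normalization they were 0.61, -1.16, 0.35, -1.09, 0.45 and 0.85, and the ubiquitous median at ZT12 changed sign, to -0.11. Scaling to the array median, in place of the 75th percentile, moved every gene alike, by between -0.20 (ZT0) and 0.26 (ZT12), and so left the difference as it was. After quantile normalization, on the authors' values, with the mean of all probes and with the other probes of Stx4a and Napa, the difference was negative at ZT4 and ZT12 and positive at the other times.

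**Figure D2:**
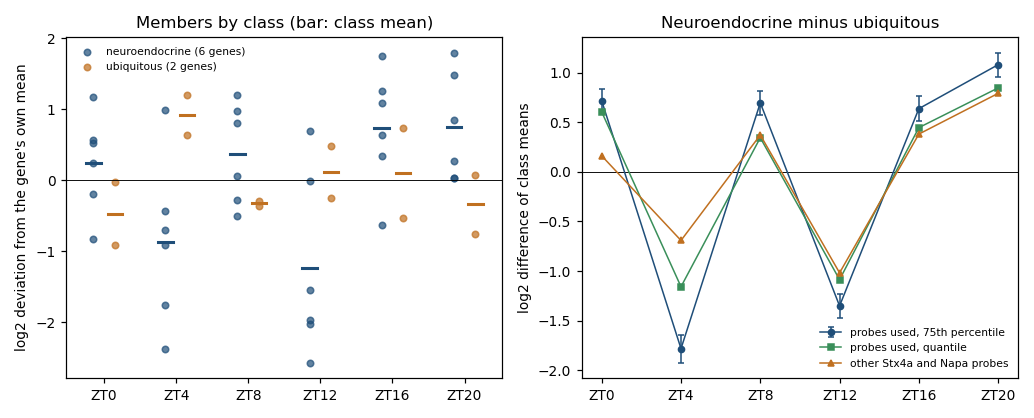
Left, log2 deviation of each measured gene from its own mean on each array, with a bar for the class mean (6 neuroendocrine and 2 ubiquitous genes). Right, the neuroendocrine minus ubiquitous difference of class means in log2 units for the probes used (with the spot error), after quantile normalization, and with the other probes of Stx4a and Napa; all 3 lines are below 0 at ZT4 and ZT12 and above 0 elsewhere.

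Differences between single genes did not all run as the class difference did. Between the t-SNAREs Snap25 and Stx4a, deviations of the first minus the second were 1.20, -0.21, -0.15, -2.51, 0.88 and 0.79 from ZT0 to ZT20, lowest at ZT12. Stx1a minus Stx4a was lowest at ZT4 (-1.90) and at 0.21 at ZT12, with Stx1a not well above background at ZT4 and ZT16. Vamp2 minus Vamp8, a v-SNARE of blood cell and epithelial granules, was 0.25, -1.03, 0.81, -1.77, 0.97 and 0.77. Rab3a minus Rab3d, the RAB3 of many exocrine granules, stayed within a range of 1.31 with the probe used. A much dimmer second Rab3d probe was lowest at ZT0 (-6.18) and not at ZT12 (-3.69), so that range depends on the probe. Rab27a minus its paralogue Rab27b ran from -2.39 at ZT4 to 1.47 at ZT12, the time at which both Rab27b probes had their lowest level. Napb, the brain form of the disassembly adaptor, minus Napa had a range of 1.95, with nearly equal lows at ZT4 (-0.83) and ZT12 (-0.85). That difference rests on the brighter Napa probe, and the other Napa probe was itself lowest at ZT12 (1.32).

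Markers of several cell types in an islet preparation moved with these levels. The median deviation of the 15 beta cell and pan-endocrine markers was 1.19, -0.84, 0.13, -2.34, 0.95 and 0.74 from ZT0 to ZT20, and that of the 6 neuroendocrine fusion genes 0.38, -0.81, 0.43, -1.76, 0.86 and 0.56. The lowest array was ZT12 in both, and ZT4 came next. Other lists were low at ZT12 as well, with medians there of -2.89 for 8 alpha, delta and PP cell markers (of 9), -1.37 for 12 acinar markers (of 12) and -1.91 for 7 duct markers (of 8). Of those measured on all arrays, 5 of 7, 8 of 11 and 5 of 6 were at least 2-fold below the other arrays at ZT12, against 18.1% of all genes. The 12 lymphocyte markers (of 14 listed) ran the other way at those times, with medians of 0.05, 2.42, 0.68, 2.17, -3.19 and -2.92, and the 10 macrophage markers (of 11) had -0.45, 1.82, 0.00, 1.61, -1.98 and -1.55. The summed level of the lymphocyte list ran between 4.01 (ZT20) and 8.59 (ZT4) on the log2 scale, that of the macrophage list between 4.31 (ZT20) and 8.60 (ZT4), and that of the beta cell and pan-endocrine list between 9.13 (ZT12) and 11.2 (ZT0). The summed acinar list spanned nearly the same levels, 9.21 (ZT12) to 11.1 (ZT0). Such sums depend on the probes and genes listed and give no cell shares. All tested lymphocyte and macrophage markers were above background throughout. The part of these cells in the fusion genes' levels was not tested.

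Relative to the median deviation of the endocrine markers on the same array, Snap25, Vamp2 and Rab3a were not low at ZT12. Snap25 stood 0.32 above that median at ZT12, Vamp2 0.80 and Rab3a 0.37, whereas Syt7 stood at -0.23. Rab27a stood 2.34 above it and Stx4a 2.83. At ZT4, where the endocrine markers were at -0.84, Syt7 stood at -1.54 relative to the marker median and Snap25 1.83 above it. Both insulin genes were highest at ZT4, Ins2 at 8.75 and Ins1 at 8.29. Of the 15 endocrine markers, 14 were lowest at ZT12, where 21.2% of all genes measured on all arrays were. Ins1 was among them by a gap far below the spot error, 6.992 against 6.994 at ZT8. Ins2 was lowest at ZT0 (6.94).

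Neurons, which use the same SNAREs, are another possible source of these transcripts in an islet preparation, and Schwann cell markers were read beside theirs. The 13 tested peripheral neuron markers (of 14) had median deviations of 0.62, -0.41, 0.13, -1.69, 0.56 and 0.83, and the 8 Schwann cell markers (of 10) 0.48, -0.17, 0.14, -1.52, 0.41 and 0.58. Both lists were lowest at ZT12. Several neuron markers, such as Tubb3, Uchl1 and Th, are also found in endocrine cells, and 9 of the 13 were measured on all arrays. Their summed level lay between 2.57 (ZT12) and 4.23 (ZT0), and the part of these cells in the result was not tested.

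**Figure D3:**
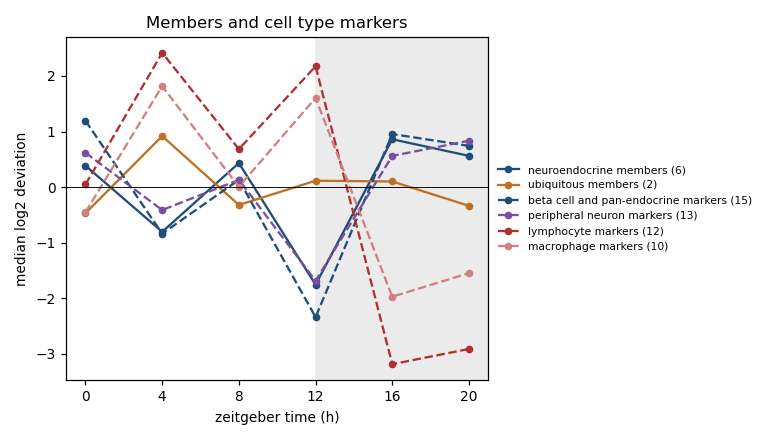
Median log2 deviation (vertical axis) of the fusion genes by class and of 4 marker lists, against zeitgeber time (hours; grey is the dark phase), with the number of genes in brackets. The neuroendocrine genes, endocrine markers and neuron markers are lowest at ZT12, and the lymphocyte and macrophage markers are highest at ZT4 and lowest at ZT16.

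Beyond the 9 genes, 95 other genes of the fusion pathway were listed by role, of which 89 were tested and 79 measured on all arrays. At ZT12, 23 of the 79 (29.1%) were at least 2-fold below the median of the other arrays, and also 23 at ZT4, against 18.1% and 15.8% of all genes. At both ZT16 and ZT20, 19 of the 79 (24.1%) were at least 2-fold above, against 10.1% and 10.3% of all genes. The shares differed between roles.

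Of the Munc18, Munc13, CAPS and complexin genes, 15 were measured on all arrays, and 8 of them (53.3%) were at least 2-fold lower at ZT12 and 8 at ZT4, against 18.1% and 15.8% of all genes. At ZT16, 5 (33.3%) were at least 2-fold higher, against 10.1% of all genes. Unc13b, another Munc13 priming factor, had levels of 1.74, 0.18, 1.24, -0.91, 2.48 and 2.33 from ZT0 to ZT20. Where Unc13a could not be read, Unc13b thus had the same low pair, ZT4 and ZT12, as Vamp2 and Syt7. Cplx2, a complexin, was 10.9-fold higher at ZT16 than at ZT12 with the probe used, and all 4 of its probes were lowest at ZT12. The dimmer Cplx2 probes were highest at ZT0 (3.29, 4.24 and 3.69) and not at ZT16. Other members of the same families went the other way. Stxbp2, the Munc18 of blood and epithelial cells, was highest at ZT4 (3.39) and lowest at ZT0 (0.83). Its dimmer second probe was also lowest at ZT0 (-1.50) but highest at ZT12 (-0.55), with -1.23 at ZT4. Unc13d, the Munc13 of cytotoxic lymphocytes and mast cells, had 1.19, 3.29, 1.03, 2.81, -2.02 and -2.20, the order of the lymphocyte markers' high and low pairs. Stxbp3, the ubiquitous Munc18 that partners syntaxin 4, was lowest at ZT4 (0.84) and highest at ZT12 (2.48). A second Stxbp3 probe had the same extremes, whereas the dimmest was highest at ZT12 but lowest at ZT0 (-4.78).

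Among the calcium sensors, 5 of 11 (45.5%) were at least 2-fold lower at ZT12, against 18.1% of all genes, and 5 of 11 at least 2-fold higher at ZT16, against 10.1%. Syt13, an atypical synaptotagmin of endocrine cells, had 6.85, 4.45, 5.47, 2.91, 6.47 and 6.09 from ZT0 to ZT20. Syt1, a fast calcium sensor, was lowest at ZT12 as well. Syt9, also a fast sensor, was not well above background on 2 arrays, ZT4 and ZT12, so its lowest array cannot be read. Of the 21 Rab GTPases and effectors measured on all arrays, 6 (28.6%) were lower by that rule at ZT12, against the same 18.1%. Rab3b was 31.6-fold higher at ZT16 than at ZT12, and Sytl4, the RAB27 effector granuphilin, 15.9-fold. Their levels at ZT12, -1.55 for Rab3b and 0.66 for Sytl4, were their lowest, so that Rab27a and its effector parted at that time. Madd, the exchange factor for RAB3 and RAB27 proteins, had 6.90 at ZT0 against 2.94 to 3.65 on the other arrays, and its probe stood apart on that array alone.

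The remaining roles gave mixed values. Nsf, the ATPase that NAPA recruits, had 0.57, 0.17, 0.42, 0.54, 0.35 and 0.63 from ZT0 to ZT20, a range of 0.46. Of 9 exocyst genes, whose products tether vesicles at the membrane, 0 were at least 2-fold lower at ZT4 or ZT12, against 15.8% and 18.1% of all genes. The exocyst median deviations lay between -0.40 (ZT8) and 0.18 (ZT4). Vamp8 had 2.16, 1.95, 2.004, 2.07, 1.502 and 1.33. Of the other t-SNAREs, 12 were measured on all arrays, 2 of which (16.7%) were lower at ZT12, against 18.1% of all genes. At ZT4, 4 of the 12 (33.3%) were lower, against 15.8%, and 4 were higher, against 23.9%. Of 7 other v-SNAREs, 3 (42.9%) were lower at ZT4, against the same 15.8%, and of 4 disassembly genes 2 were lower at ZT0, where 18.4% of all genes were. Snap23, the widespread paralogue of Snap25, had 2.98, 3.62, 1.28, 1.11, 1.83 and 1.40, although its dimmer second probe was lowest at ZT0. The median deviation of the other t-SNAREs lay between -0.24 and 0.32. Vamp3, the general paralogue of Vamp2, was not well above background at ZT4 and lay between -1.63 and -0.62 on the other 5 arrays.

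**Figure D4:**
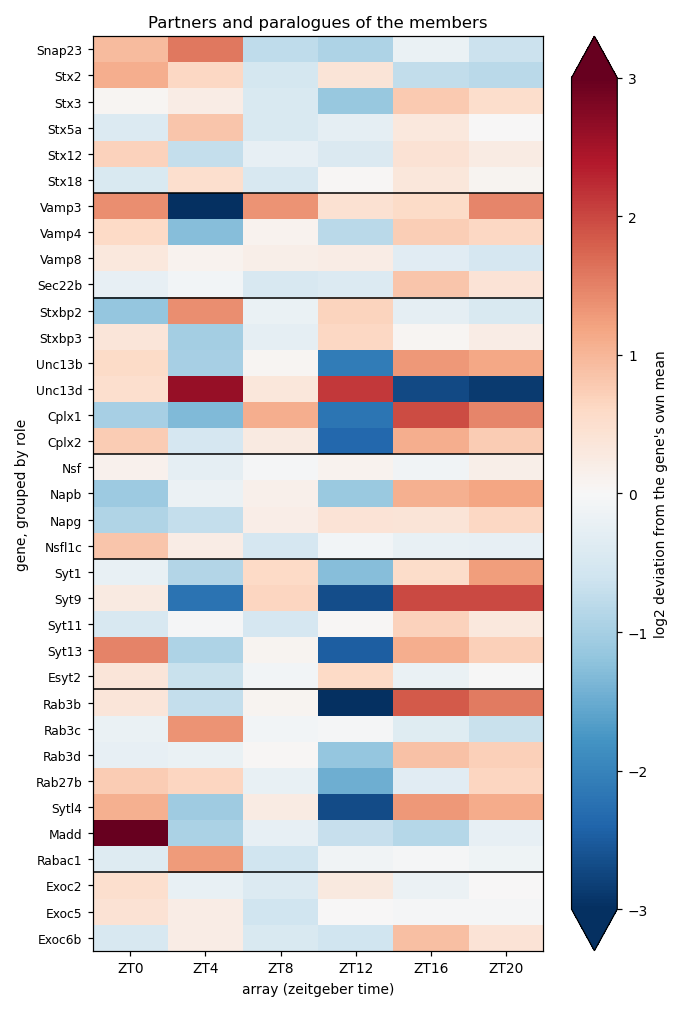
Log2 deviation of 35 named partners and paralogues from their own mean (colour, limits at 3 in either direction) on the 6 arrays, with lines between roles: t-SNAREs, v-SNAREs, syntaxin regulators, disassembly, calcium sensors, Rab GTPases with effectors, and exocyst. Unc13b, Cplx2, Syt13, Rab3b and Sytl4 are blue at ZT12, Unc13d and Stxbp2 are red at ZT4, and Nsf is near 0 throughout.

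A cosine of 24 h period was fitted across all genes, with 3 residual degrees of freedom, to ask whether the levels followed a daily curve. By limma's moderated F test 0 of 24127 genes (0.0%) passed an adjusted p of 0.05, and 966 (4.0%) had an unadjusted p under 0.05. Of the fusion genes 0 of 8 passed, and 1 of 8, Rab27a, had an unadjusted p under 0.05. Rab27a had a fitted peak minus trough of 2.95 ± 0.87 (SE) with its peak at ZT16.9, and limma gave an unadjusted p of 0.0333 and an adjusted p of 0.754. With scan as a covariate, which left 1 residual degree of freedom, its fitted peak minus trough was 2.16 and its unadjusted limma p was 0.0889. Snap25 had 2.53 ± 0.91 with its peak at ZT0.09, and its limma adjusted p was also 0.754. With scan as a covariate the fitted peak minus trough of Snap25 was 1.96.

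The other fusion genes had fits with larger relative errors. The fitted peak minus trough was 2.66 ± 1.75 (SE) for Syt7, 1.85 ± 1.08 for Rab3a, 1.24 ± 0.85 for Stx4a, 0.96 ± 0.83 for Stx1a, 0.82 ± 1.13 for Vamp2 and 0.44 ± 0.88 for Napa. A gene that was low at both ZT4 and ZT12 and high between them, as Vamp2 and Syt7 were, cannot be described by 1 peak a day. Of the 89 other pathway genes tested, 0 passed and 1 had an unadjusted p under 0.05, Unc13d (limma adjusted p of 0.754).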

How the data were processed

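Gene expression was measured on 6 one-colour Agilent arrays. The deposited scanner files came from Agilent Feature Extraction 11.0.1.1, per the submitters' processing notes. Per the file headers, they hold a background-subtracted, detrended linear intensity per spot, its error, median spot and background intensity, and other columns of flags. The authors' deposited value table held log2 values of 30170 probes with column medians of 8.62 to 8.63. It correlated across probes with the log2 signal of each value's own array at 0.9987 or above and looked quantile-normalized, but the steps were not given in the sources used here.

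Control spots were left out and the spots of a probe averaged, giving 39429 probes. RefSeq accessions gave symbols to 27234 of them (69.1%, GRCm38.p6 names only). Values were log2 intensity minus the array's 75th percentile, which was 506 (ZT4) to 2090 (ZT8) in signal units. A probe was tested where 3 or more arrays were well above background and no array had all its spots flagged as outliers, and the brightest probe stood for a gene. The ZT0 array had 1743 outlier spots, the others 166 to 247. A dim value was bounded by the lowest signal of probes well above background. Cosines were fitted with limma 3.58.1 in R 4.3.3, with Benjamini-Hochberg adjustment over all genes, and the fit was tested on simulated data. The simulated noise was a fixed value not taken from these arrays, so that check says nothing of the power here. The arrays' number limits the precision. The class comparison was planned with all 7 neuroendocrine genes and made with 6, since Unc13a was below background. The members, lists and tests were chosen with earlier results of these data known. Named beside the members were 3 genes of highest mean in each pathway list that were above background on all arrays, direct paralogues, main partners, and the 3 genes nearest in pattern to Snap25 and Stx4a. Some genes of that rule are not reported here. Alternatives covered scaling, background, filters, probes, scan, arrays left out, test and period. Those with the other probes of Stx4a and Napa, and without Stx1a, were chosen after seeing the data.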

Additional observations from a re-analysis of the deposited data

How the results depend on the processing

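With 1 pool per time, only scanner error and no spread between mice is known, and 3 residual degrees of freedom limit the cosine. No paired analysis was possible because each time point has 1 array and no replicate number. The cosine called 0 genes and 0 fusion genes under all 18 alternatives run. The number of genes with an unadjusted p under 0.05 by that limma fit, 966 in the main setting, was 4028 without ZT8, 2456 without ZT12, 424 without ZT16, 348 without ZT20, 439 with scan as a covariate, 247 at a period of 20 h and 1590 at 28 h. The unadjusted p of Rab27a ran from 0.0118 (28 h) to 0.251 (20 h).

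The neuroendocrine minus ubiquitous difference had a range over the day of 2.87. It was 2.01 after quantile normalization, 2.01 on the authors' values, 2.20 with normexp background, 2.18 with the mean of all probes, 2.43 on the 4 arrays of the shared scan and 1.81 with the other probes of Stx4a and Napa. With single arrays left out it ran from 2.43 (without ZT4) to 2.87, with 2.50 without ZT20. The cause was not tested. The 13 departures of at least 2-fold became 10 to 19 under the alternatives.

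No fusion gene passed the adjusted threshold in these fits. Leaving out single arrays gave Vamp2 a fitted peak minus trough of 0.59 (without ZT0) to 2.57 (without ZT8). Fitted peaks moved by more than 6 h for Vamp2 without ZT12 (1.08, peak at ZT13.8), the other Syt7 probe (1.54, ZT1.97), Stx4a with scan as a covariate (1.42, ZT12.0), and Napa without ZT0 (0.69, ZT22.5) and without ZT16 (0.35, ZT5.91). The cause was not tested.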

Other observations

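Likeness of pattern to Snap25 and Stx4a was measured as the mean absolute difference of deviations over the 6 arrays, among 13836 genes with a symbol. Lrp4 (0.14), Mt1 (0.18) and Usp17la (0.18) lay nearest to Snap25, where the median gene lay at 0.995. Lrp4 had deviations of 1.30, 1.005, -0.24, -2.06, 0.29 and -0.31 from ZT0 to ZT20, against 1.17, 0.99, -0.51, -2.03, 0.35 and 0.03 for Snap25. Vcpkmt, Rara and Tars2 (0.07 each) lay nearest to Stx4a, where the median gene lay at 0.75. Rara had -0.14, 1.24, -0.24, 0.53, -0.62 and -0.78, against -0.03, 1.20, -0.36, 0.48, -0.54 and -0.76 for Stx4a. With 6 arrays and many genes, close matches of this kind are a description only.

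The Rab3c probes differed in pattern. The probe used was highest at ZT4 (0.86) and lay between -1.14 and -0.52 elsewhere, whereas a dimmer probe was lowest at ZT12 (-5.83) and at -3.78 at ZT4. Madd, described above, stood high at ZT0, on an array with 1743 outlier spots.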
